A study of Homo sapiens with 8 samples.

Results

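The genes described here are FOXC1 and 8 neighbours in the chromosome band 6p25: FOXF2, FOXQ1, FOXCUT, GMDS, EXOC2, IRF4, DUSP22 and HUS1B. They were chosen by name, FOXC1 for its higher count in SP cells and the others for lying beside it, so the SP against NSP difference of FOXC1 is what selected the locus. Its fold change, interval and call come from the fit over all genes, are given as a description and are not evidence for that difference. Of the 9 genes, 8 were found by identifier among the 57820 genes of the deposited count table, 7 had at least 1 count and 3 (FOXC1, FOXF2 and DUSP22) passed the filter on low counts that left 9309 genes for testing. FOXCUT is not analysed here.

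J82 is an established human bladder cancer cell line. Cultures of the unmodified line were stained with a Hoechst dye and sorted by flow cytometry into side population (SP) cells, which pump the dye out and stain weakly, and non-side population (NSP) cells, which retain it. Both groups share the line, the medium and the staining, and are told apart by the sort gate. Polyadenylated RNA was sequenced in 4 SP and 4 NSP libraries, and no source says whether the libraries came from separate cultures or sorts, so the p-values below measure the spread between these libraries, which may be technical.

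Forkhead factors bind DNA through a winged-helix domain, and 6p25 holds a small cluster of their genes. FOXC1 directs the development of the eye, the skull, vessels and the kidney, and its loss causes anterior segment defects, while in carcinomas it is known for its link to invasive and undifferentiated states. FOXF2 acts mainly in mesenchyme, FOXQ1 mainly in epithelia, and FOXCUT is a long noncoding RNA (lncRNA) transcribed upstream of FOXC1.

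The bases just before the start of transcription of the 3 forkhead genes are shown so that their promoters can be set beside the expression values. They are the 250 bases before the start annotated by RefSeq, 5' to 3' on the plus strand of GRCh38.p14, with each CpG dinucleotide in capitals. The FOXC1 stretch is chr6:1609665-1609914, that of FOXF2 is chr6:1389326-1389575 and that of FOXQ1 is chr6:1311848-1312097.
FOXC1: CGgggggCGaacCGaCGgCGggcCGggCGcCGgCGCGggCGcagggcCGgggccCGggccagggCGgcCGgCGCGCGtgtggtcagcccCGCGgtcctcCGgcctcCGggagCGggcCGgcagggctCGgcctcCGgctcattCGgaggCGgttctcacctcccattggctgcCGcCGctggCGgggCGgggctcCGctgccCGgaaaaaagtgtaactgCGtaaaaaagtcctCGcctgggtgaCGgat
FOXF2: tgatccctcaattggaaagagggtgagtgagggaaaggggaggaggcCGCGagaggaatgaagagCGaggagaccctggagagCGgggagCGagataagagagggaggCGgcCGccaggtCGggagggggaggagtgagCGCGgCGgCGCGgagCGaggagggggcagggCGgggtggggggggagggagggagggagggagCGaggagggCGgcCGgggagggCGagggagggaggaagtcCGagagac
FOXQ1: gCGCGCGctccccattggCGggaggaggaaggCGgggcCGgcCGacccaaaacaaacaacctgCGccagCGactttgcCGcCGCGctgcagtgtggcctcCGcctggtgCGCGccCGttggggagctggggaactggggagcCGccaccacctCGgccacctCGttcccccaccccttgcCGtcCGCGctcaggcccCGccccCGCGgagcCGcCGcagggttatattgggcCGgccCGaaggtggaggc
FOXC1 had the densest CpGs of the 3, with 37, and 96.0% of the 35116 promoters in the RefSeq table held fewer. FOXQ1 had 29 and FOXF2 had 20, against a median of 11 over all promoters. The forkhead core TAAACA, searched on both strands as TAAACA or TGTTTA, was not found in these 3 stretches. It was found in 2 of the 10 promoters listed for the 9 genes (HUS1B and an alternative GMDS start) and in 10.99% of all promoters. Only this form of the core was searched, so forkhead sites of another form may lie in these stretches.

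FOXC1 (ENSG00000054598.5) is a gene of 1 exon, and its counts per library are the largest of the locus in SP cells. The 4 SP libraries held 91, 155, 85 and 134 FOXC1 counts and the 4 NSP libraries 21, 17, 9 and 7. As CPM (counts scaled to a common library size, here with TMM normalization), SP libraries stood at 65.6, 103.9, 46.0 and 98.6, and NSP libraries at 11.2, 8.40, 5.74 and 4.84. The lowest SP library was thus higher than the highest NSP library. The log2 fold change (SP minus NSP) was 3.33 with a standard error of 0.31 and a 95% interval of 2.67 to 3.98, or 10.0-fold with an interval of 6.38 to 15.8. Between libraries of the same replicate number the ratio of SP to NSP was 5.87, 12.4, 8.02 and 20.4. FOXC1 was among the 152 genes called higher in SP cells (adjusted p under 0.05 with a change of more than 1.3-fold). Calls of that direction made up 1.63% of the 9309 tested genes, lower calls 2.03% and both together 3.66%. Because FOXC1 was picked from this contrast, nothing is read from its call. These are libraries from many cells, so more cells with the transcript and more transcript per cell cannot be told apart.

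**Figure D1:**
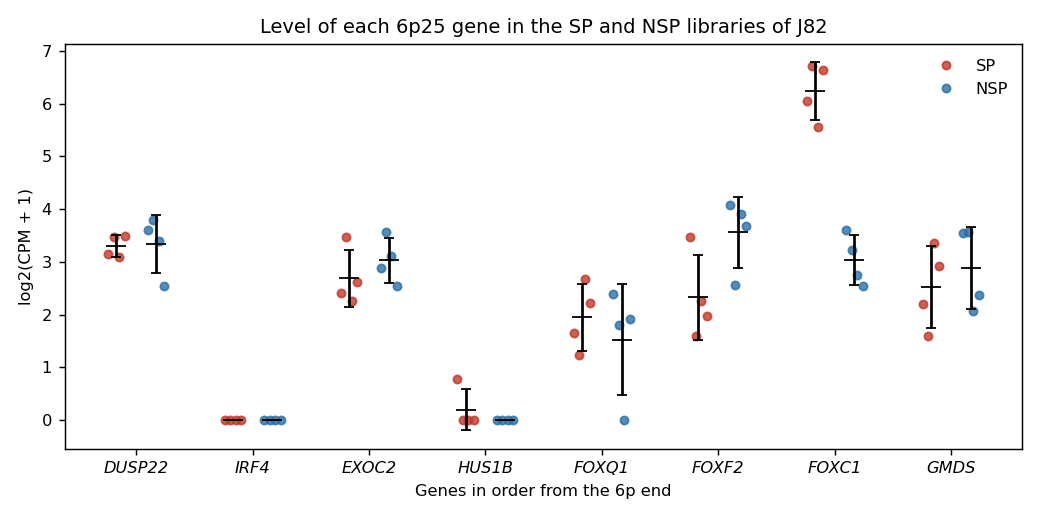
Level of the 8 listed 6p25 genes of the table in each library, as log2(CPM + 1), in order from the 6p end. Points are libraries (4 SP, 4 NSP), the short line is the group mean and the bars are 1 SD; only for FOXC1 do the SP points, from 46.0 to 103.9 CPM, lie apart from the NSP points, from 4.84 to 11.2 CPM.

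FOXC1 lies on the plus strand of chromosome 6, from 1610150 to 1614132 in GRCh37, and none of the exons annotated on the minus strand crosses it. The positions of the other listed genes are given on the same chromosome and build. In GRCh37, 99.5% of the 50-base windows in its exon occur at no other place in the genome, and the same held for 99.2% of FOXF2 windows and 92.5% of DUSP22 windows, while all windows of the other listed genes were unique. The strand setting of the counting is not given in the sources used here. Over the whole table, the lncRNA had more counts per kb than the protein-coding gene in 90.2% of 582 opposite-strand pairs, in which at least 50% of the lncRNA exons lay across exons of that gene and the pair held at least 100 counts. The median ratio of the lncRNA to the gene was 38.6 in counts per kb. The counts of a gene may therefore be partly or mostly reads of the opposite strand. Each level given here is that of the counts assigned to the gene and not a measured level of its own transcript. The part of such reads in the counts of FOXC1 and of the other genes was not tested.

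FOXF2 (ENSG00000137273.3; 1389811 to 1395838, plus strand), the nearest forkhead gene at 214.3 kb from FOXC1, had a lower mean level in SP than in NSP cells, with overlapping libraries. It had 14, 3, 7 and 4 counts in the SP libraries and 30, 10, 22 and 17 in the NSP libraries. SP libraries had levels of 10.1, 2.01, 3.79 and 2.94 CPM, and NSP libraries 15.96, 4.94, 14.0 and 11.8 CPM. SP replicate 1 was the only SP library above the lowest NSP library, and without it the groups would not overlap. The SP level was below the NSP level at each replicate number, with ratios of 0.632, 0.407, 0.270 and 0.251. The log2 fold change was -1.31 (standard error 0.46, 95% interval -2.29 to -0.32), which puts the SP level at 40.5% of the NSP level, and FOXF2 was not called. It was called lower once the replicate number entered the fit as a block (log2 fold change -1.34), a fit that called 12.9% of all tested genes. It was also called with no filter on low counts (-1.32), a fit that used a spread shared across genes and called 381 genes lower. Without SP replicate 1 it was called at -1.94, a setting with 163 lower calls. With any other library left out FOXF2 was not called (adjusted p 0.0866 to 0.327, edgeR), nor was it by DESeq2 (adjusted p = 0.204). These calls are given as a description. FOXF2-DT, an lncRNA gene that lies upstream of FOXF2 and is read in the other direction, had 1 count over the SP libraries and 7 over the NSP libraries.

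FOXQ1 (ENSG00000164379.4; 1312333 to 1314993, plus strand), 295.2 kb from FOXC1, was near the limit of detection in both groups. The SP libraries held 3, 2, 10 and 5 FOXQ1 counts and the NSP libraries 8, 5, 0 and 4. Mean levels of 3.15 ± 1.79 CPM (SP) and 2.37 ± 1.76 CPM (NSP; SD, n = 4 each) overlapped. FOXQ1 did not pass the filter, and a fit of all genes with at least 1 count gave a log2 fold change of 0.38 (standard error 0.59, 95% interval -0.79 to 1.54). The interval of the fold, 0.580 to 2.92, included both lower and higher SP levels. The fit without the filter used a spread shared across genes in place of each gene's own, so its intervals may be too narrow. DESeq2 gave FOXQ1 a larger standard error of 0.80.

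The listed genes that are not forkhead factors surround the cluster. GMDS (ENSG00000112699.6; 1624041 to 2245839, minus strand) encodes GDP-mannose 4,6-dehydratase, the entry enzyme of GDP-fucose synthesis, and is the nearest counted neighbour of FOXC1, with 9.91 kb between them. The SP libraries held 5, 3, 17 and 9 GMDS counts and the NSP libraries 20, 22, 5 and 6. SP levels were below NSP levels at replicate numbers 1 and 2 (ratios 0.339 and 0.185) and above them at numbers 3 and 4 (ratios 2.89 and 1.60), so the direction changed between pairs. FOXQ1 had the same order, with SP below NSP at numbers 1 and 2 and above at 3 and 4. Without the filter the GMDS log2 fold change was -0.46 (standard error 0.41, 95% interval -1.26 to 0.34). DESeq2 gave GMDS a larger standard error of 0.58. GMDS-DT, an lncRNA gene read away from the start of GMDS, had 3 counts over the SP and 7 over the NSP libraries.

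EXOC2 (ENSG00000112685.9; 485154 to 693139, minus strand) encodes the exocyst subunit that binds the GTPase RALA and helps tether secretory vesicles to the plasma membrane. Its counts were 6, 15, 7 and 7 in SP and 12, 22, 12 and 7 in NSP libraries. The levels were 5.83 ± 2.87 CPM and 7.43 ± 2.56 CPM (SD, n = 4 each) and overlapped, with a log2 fold change of -0.40 (standard error 0.40, 95% interval -1.19 to 0.39) in the fit without the filter. DESeq2 gave EXOC2 a larger standard error of 0.50. HUS1B (ENSG00000188996.4; 655939 to 657100, minus strand), a relative of the HUS1 subunit of the 9-1-1 checkpoint clamp that lies within the span of EXOC2, had 1 count in SP replicate 1 and 0 in the other 7 libraries, and no fold change is given for it.

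DUSP22 (ENSG00000112679.10; 291630 to 351355, plus strand), an atypical dual specificity phosphatase that acts on the JNK pathway, is the listed gene nearest the telomere. It had 11, 15, 14 and 14 counts in SP and 21, 26, 15 and 7 in NSP libraries. The groups overlapped at 8.97 ± 1.41 and 9.60 ± 3.45 CPM (SD, n = 4 each). The log2 fold change was -0.14 (standard error 0.32, 95% interval -0.81 to 0.54), and it was 0.04 without NSP replicate 2. An exon of the lncRNA ENSG00000287265, not analysed here, crosses 71 bp of DUSP22 exons on the other strand. IRF4 (ENSG00000137265.10; 391739 to 411443, plus strand), a transcription factor of lymphocytes and melanocytes, had 0 counts in all 8 libraries. A count of 0 allows up to 3 counts per group, or 0.493 CPM over the SP and 0.434 CPM over the NSP libraries, for counting error only.

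**Figure D2:**
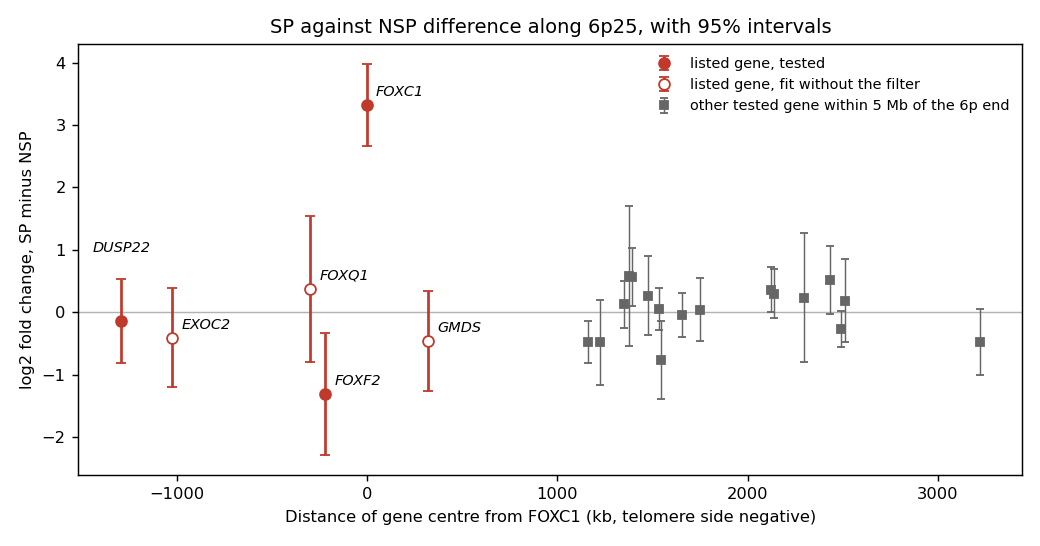
Log2 fold change (SP minus NSP) with its 95% interval against the distance of the gene centre from FOXC1 in kb, with the telomere side negative. Filled circles are listed genes in the filtered fit, open circles are listed genes in the fit without the filter and squares are the 17 other tested genes within 5 Mb of the 6p end. The intervals of the open circles rest on a spread shared across genes and may be too narrow. FOXC1 stands at 3.33, and the squares lie between -0.76 and 0.59.

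FOXC1 thus stood alone among the listed genes in having SP and NSP ranges that did not overlap, which 9.75% of all tested genes had too. The 7 other listed genes of the table together gave 28.8, 25.5, 29.8 and 28.7 CPM in SP and 48.4, 42.0, 34.4 and 28.4 CPM in NSP libraries. The summed level averaged 28.2 ± 1.88 CPM over the SP libraries, from 172 counts, and 38.3 ± 8.75 CPM over the NSP libraries, from 271 counts (SD, n = 4 each). NSP replicate 4 was the NSP library within the SP range, and the other 3 lay above it. FOXC1 took 69.5%, 80.3%, 60.7% and 77.5% of the counts of the 8 genes in the SP libraries and 18.8%, 16.7%, 14.3% and 14.6% in the NSP libraries. The lowest SP share, in replicate 3, had an exact 95% binomial interval of 52.1% to 68.9%, and the highest NSP share, in replicate 1, one of 12.0% to 27.2%. These intervals cover counting error only and not the spread between libraries. The share contains the FOXC1 count that selected the locus, so it is a description and no test.

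**Figure D3:**
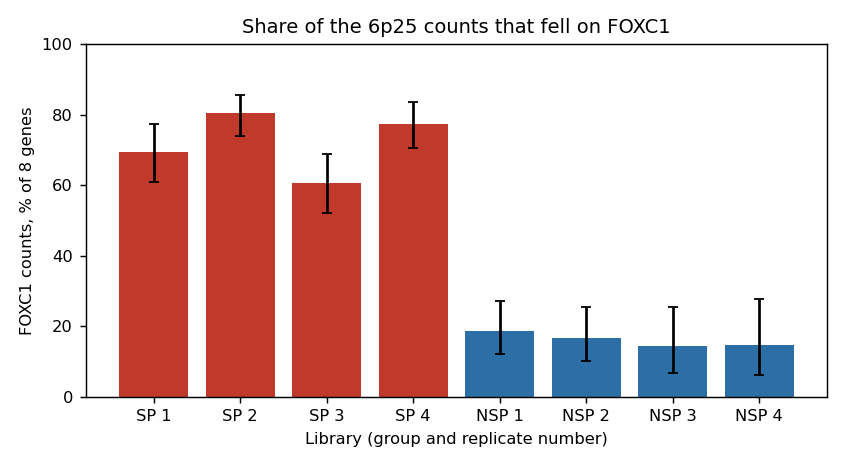
Share of the counts of 8 listed 6p25 genes that fell on FOXC1, in percent, for each library. Bars are the shares and the lines are exact (Clopper-Pearson) 95% binomial intervals, which cover counting error only; SP shares run from 60.7% to 80.3% and NSP shares from 14.3% to 18.8%.

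Levels of different genes were compared as CPM per kb of exon. In SP cells FOXC1 was first at 19.7 ± 6.91 CPM per kb and FOXF2 next at 1.92 ± 1.49 CPM per kb (SD, n = 4 each), with DUSP22 (1.58), GMDS (1.27), FOXQ1 (1.18), EXOC2 (1.17), HUS1B (0.155) and IRF4 (0) after them. Each FOXC1 value in SP cells lay above all values of the other genes, while neighbours in the order from FOXF2 to EXOC2 overlapped. In NSP cells FOXF2 was first at 4.76 ± 1.96 CPM per kb and FOXC1 next at 1.89 ± 0.717 CPM per kb (SD, n = 4 each), and the libraries of these genes overlapped. GMDS (1.71), DUSP22 (1.69), EXOC2 (1.49) and FOXQ1 (0.892) followed in NSP cells, each overlapping the next, and HUS1B and IRF4 were at 0. Among 9130 tested genes with an annotated exon length, FOXC1 per kb stood above 73.9% in SP and 19.4% in NSP cells, FOXF2 above 18.5% and 42.8%, and DUSP22 above 14.3% and 16.6%.

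The higher FOXC1 level in SP cells was next set against the rest of the 6p end, whose genes were taken by position alone. Of 89 other genes of the table that start within 5 Mb of the 6p end, 44 had a count and 17 were tested, all of them on the centromere side of FOXC1. None of the 17 was called by edgeR's quasi-likelihood test or by DESeq2, while an unadjusted p under 0.05 was reached by 2 in each direction. At the 3.66% called over all tested genes, 0 of 17 is near the background and is no result about the locus. Their median log2 fold change was 0.13, against 0.01 for all tested genes, and 11 lay above 0 and 6 below.

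WRNIP1, an ATPase that interacts with the Werner helicase, is the tested gene nearest to FOXC1 on that side, at 1151 kb. It averaged 55.8 ± 4.25 CPM in SP libraries against 77.2 ± 8.90 CPM in NSP libraries (SD, n = 4 each), with no overlap between the groups, as for 9.75% of all tested genes. WRNIP1 had a log2 fold change of -0.47 and an adjusted p of 0.123 (edgeR), and it was called lower with the replicate block (-0.47). The serpin genes SERPINB1 (-0.48, adjusted p = 0.501, edgeR) and SERPINB6 (0.13, adjusted p = 0.786, edgeR) and the lncRNA LINC01011 (0.59, adjusted p = 0.639, edgeR) followed. NQO2, a quinone reductase whose start lies beside that of LINC01011, had a log2 fold change of 0.57 (adjusted p = 0.196, edgeR) and was called higher with the block (0.59). TUBB2A, a beta-tubulin gene, had the lowest value, -0.76 (adjusted p = 0.198, edgeR), and was called lower with the block (-0.74) and without the filter (-0.78). The block called 3 of the 17 genes, near the 12.9% it called over all tested genes. These calls are no result about the locus. TUBB2A has a near-identical copy in TUBB2B, and exons of NQO2, LINC01011 and WRNIP1 cross exons on the other strand, so their counts are uncertain.

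The remaining comparisons followed each listed gene to the family or pathway it belongs to. In the forkhead family, 34 of 44 genes had a count and 15 were tested, of which FOXC1 was called higher and 0 were called lower. FOXC1 was picked from this contrast, so its call is no result about the family. The 0 lower calls are near the 2.03% called lower over all tested genes. The 15, with FOXC1 and FOXF2 among them, had a median log2 fold change of -0.08, against 0.01 for all tested genes, with 8 below and 7 above 0. FOXH1, a cofactor of SMAD proteins, had the highest forkhead level in CPM (SP 191.6 ± 30.8 CPM, NSP 213.6 ± 27.4 CPM, SD, n = 4 each), with 791 bp of its exons under exons of the other strand, and had a log2 fold change of -0.16 (adjusted p = 0.684, edgeR). FOXM1, a driver of mitotic gene expression with 782 bp of exons under exons of the other strand, had 46, 78, 220 and 67 counts in SP libraries and 207, 194, 144 and 113 in NSP libraries, and in CPM SP replicate 3 lay above all NSP libraries and the other 3 SP libraries below them. Its log2 fold change was -0.55 (adjusted p = 0.364, edgeR), and with the block it was called lower at -0.65, as it was without SP replicate 3 at -1.06, with FOXF2 the other forkhead gene called lower by the block.

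The band 16q24 holds a related cluster, with FOXF1, FOXC2 and FOXL1 and, beside them, IRF8. None of its 6 listed genes had enough counts to be tested. FOXC2 and IRF8 had 0 counts in all libraries. FOXF1 had 6 counts over the SP and 18 over the NSP libraries, FOXL1 had 3 and 12, FENDRR, the lncRNA beside FOXF1, had 1 and 2, and MTHFSD had 28 and 19. Genes that earlier work on development and cancer ties to FOXC1 were as sparse, with 0 of 10 tested. Among them MSX2 had 31 counts over the SP and 33 over the NSP libraries, FOXO1 had 17 and 11, and CXCR4, the receptor of CXCL12, had 1 and 5. KITLG had 8 and 12 counts, HEY2 8 and 4, GLI2 0 and 5, CXCL12 and DLL4 1 in each group, and FGF19 had 0 in all libraries.

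In the GDP-fucose list, to which GMDS belongs, 13 of 26 genes were tested, with a median log2 fold change of -0.0041. FUT8, the transferase that adds the core fucose to N-glycans, was called lower in SP cells, and 0 were called higher. At 3.66% called over all tested genes, 1 of 13 is near the background and is no result about the pathway. FUT8 had 18, 16, 15 and 13 counts in SP and 42, 67, 37 and 29 in NSP libraries, or 10.3 ± 2.05 and 24.8 ± 5.74 CPM (SD, n = 4 each). The groups did not overlap, as for 9.75% of all tested genes. The difference on the log2 scale was -1.28 (standard error 0.26, adjusted p = 0.0124, edgeR), with 824 bp of its exons under exons of the other strand, and FUT8 was not called without NSP replicate 2 (-1.10, adjusted p = 0.0555, edgeR). SLC35C1, the GDP-fucose transporter of the Golgi, had a log2 fold change of 0.49 (adjusted p = 0.368, edgeR).

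The lists around the other neighbours held 0 called genes, which at 3.66% called over all tested genes is near the background for lists of 4 to 7 tested genes. The exocyst list had 7 of 11 genes tested with a median of -0.06, from EXOC6B (-0.55, adjusted p = 0.418, edgeR) and RALA (-0.48, adjusted p = 0.537, edgeR) at the low end. Of the interferon regulatory factors, 4 of 9 were tested with a median of 0.29, among them IRF1 (0.45, adjusted p = 0.291, edgeR), with 3291 bp of exons under exons of the other strand, and IRF2 (0.41, adjusted p = 0.595, edgeR). The checkpoint clamp list had 6 of 12 tested with a median of -0.09. RAD1, the clamp subunit that pairs with HUS1 and RAD9A, had 499, 942, 1693 and 1980 counts in SP and 265, 612, 963 and 1117 in NSP libraries, which overlapped between the groups while the SP count was the higher at each number. Its log2 fold change was 0.88 (adjusted p = 0.324, edgeR), and with the block RAD1 was called higher at 0.97, as it was without the filter at 0.87, whereas TOPBP1, which activates the ATR kinase, had -0.53 (adjusted p = 0.513, edgeR). In the phosphatase and JNK list 6 of 19 genes were tested with a median of -0.07. MAPK9, the JNK2 kinase, had 17.9 ± 0.782 CPM in SP and 28.1 ± 3.80 CPM in NSP libraries (SD, n = 4 each) without overlap, as for 9.75% of all tested genes. MAPK9 had a log2 fold change of -0.64 (adjusted p = 0.104, edgeR) and a call with the block only (-0.64), and DUSP3 had 0.34 (adjusted p = 0.510, edgeR).

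The genes whose level followed that of FOXC1 most closely were ranked by Pearson's r of log2(CPM + 1) over the 8 libraries. This r is given as a description, since the points fall into the SP and NSP groups and share their libraries. PKD1L1, of the polycystin family, came first (r = 0.979), at 54.7 ± 16.6 CPM in SP and 10.1 ± 3.39 CPM in NSP libraries (SD, n = 4 each). SNF8, a part of the ESCRT-II complex (r = 0.973), NTN4, which encodes the secreted protein netrin-4 (r = 0.970), the protease gene SPPL2B (r = 0.968) and the lncRNA ARSD-AS1 (r = 0.964) followed. FOXF2 had r = -0.72 with FOXC1 and DUSP22 had r = 0.15. With the group means taken out, the closest were the lncRNAs ENSG00000234203 (r = 0.967) and ENSG00000253144 (r = 0.953), SPATA2L (r = 0.944), GNAS, which encodes the stimulatory G protein alpha subunit (r = 0.940), and GLG1 (r = 0.935). On this second measure DUSP22 had r = 0.73 with FOXC1, far from its value over the 8 libraries, and FOXF2 had r = -0.30. None of the genes on the first list was among those on the second, and neither list held a gene of chromosome 6. Exons of SNF8, SPPL2B, ARSD-AS1, ENSG00000234203, ENSG00000253144 and GNAS lie across exons of the other strand, so their counts are uncertain.

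The libraries held 1431823 to 2073526 counts each, and 1 count was worth 0.494 to 0.736 CPM, which sets the precision for the sparse genes above. These totals are far below the raw reads per sample that the study states, and the reason was not tested. The epithelial keratins were present, with KRT8 at 3298 ± 485 CPM in SP and 4022 ± 737 CPM in NSP libraries (SD, n = 4 each). The urothelial markers UPK3A and TP63 were at 0, and the other 11 urothelial and epithelial markers had at least 1 count. Of 13 urothelial and epithelial markers 5 were tested, with 1 called lower and 0 higher, against 3.66% called over all tested genes. Their log2 fold changes lay below 0 for 4 and above 0 for 1, with KRT7 at -1.35. The summed level was 3430 to 4783 CPM in SP and 4672 to 6414 CPM in NSP libraries. Of 7 mesenchymal markers 6 were tested, with 1 called higher and 1 lower, beside the same 3.66% over all tested genes. Their log2 fold changes lay below 0 for 5 and above 0 for 1 (median -0.56), from FN1 (-1.25) to COL1A2 (2.09). Their summed level was 382 to 603 CPM in SP and 546 to 919 CPM in NSP libraries. The part of these shifts in the FOXC1 difference was not tested. The leukocyte markers PTPRC, CD3E and MS4A1 were at 0, and the list of 7 summed to 4.33 to 12.97 CPM in SP and 6.91 to 10.6 CPM in NSP libraries. Endothelial markers summed to at most 0.736 CPM in any library. Of 4 melanocyte markers TYR was at 0, and the list summed to 119.6 to 135.4 CPM in SP and 148.7 to 199.6 CPM in NSP libraries, nearly all of it PMEL.

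Given only as a description of the values that selected it, the FOXC1 log2 fold change was 3.16 to 3.57 with each library left out in turn, and 3.31 to 3.33 with DESeq2, with DESeq2 size factors, without the filter and with the replicate block. The FOXF2 log2 fold change lay between -1.94 and -1.06 over the libraries left out.

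**Figure D4:**
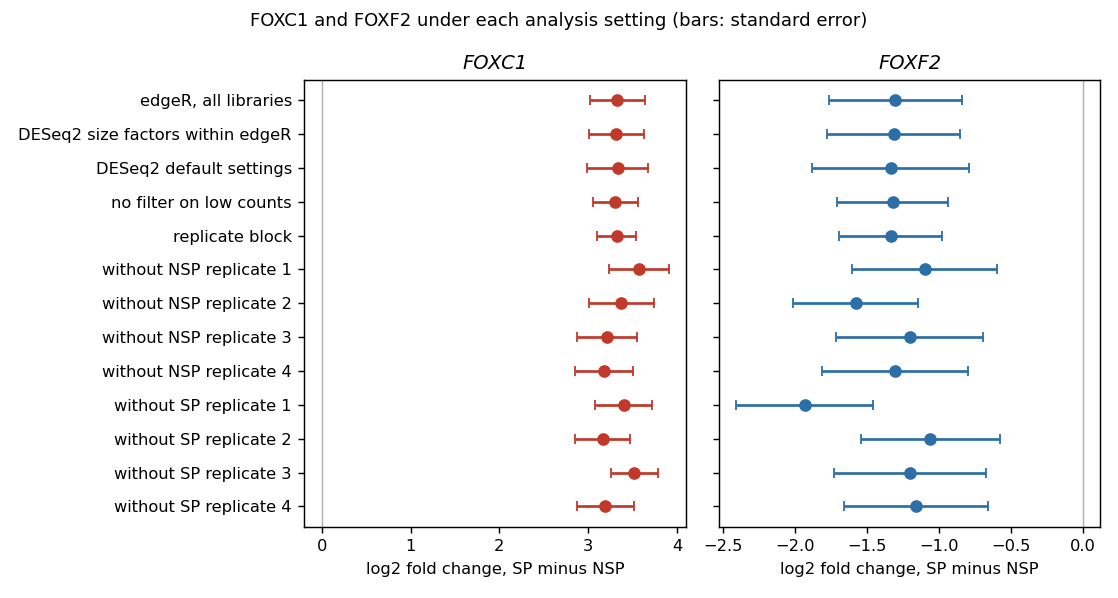
Log2 fold change (SP minus NSP) of FOXC1 (left) and FOXF2 (right) under each analysis setting, with bars of 1 standard error. FOXC1 stays between 3.16 and 3.57 and FOXF2 between -1.94 and -1.06, and the lowest FOXF2 value is the one without SP replicate 1.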

How the data were processed

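Per the labels and the methods of the study, single-end 50-bp reads from mRNA libraries of sorted J82 cells were aligned by the authors to hg19 with STAR and counted on gencode version 19 genes with featureCounts. The authors deposited raw read counts per gene and library, with no normalization. How multiply matching reads were handled is not given in the sources used here. Symbols, exons and positions came from the GENCODE annotation mapped to GRCh37 (found for 55538 of 57820 genes), and promoter sequences from RefSeq (GRCh38.p14).

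The test over all genes was that of edgeR 4.0.16, run under R 4.3.3 (TMM, filterByExpr with a minimum count of 10 and total of 15, quasi-likelihood F test, Benjamini-Hochberg adjustment) without covariates, and with DESeq2 1.42.0 as an alternative. The edgeR fit was tested on simulated data. A call needed an adjusted p under 0.05 with a change of more than 1.3-fold, the cutoff of the study. Deviations from the group means of libraries with the same replicate number were correlated (r = 0.383, 0.205, 0.323 and 0.323), so the numbers were taken as pairs from the data, and a fit with the number as a block was run. The listed genes, the pathway and marker lists and the alternatives were chosen with earlier results of these data known. Genes named from the 6p end were the 4 nearest tested genes, those called and the 2 highest and 2 lowest. From each list the called genes and the 2 with the smallest p were named, and the 5 genes most like FOXC1 by each measure. The marker genes and untested genes given by count were named beyond this rule.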

Additional observations from a re-analysis of the deposited data

How the results depend on the processing

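The calls over all genes changed with the filter and with the replicate block. Without the filter on low counts 303 genes were called higher and 381 lower, 1 gene of the 6p end and 2 list genes outside 6p25 were called, and with the replicate block these counts were 548, 652, 3 and 4. The fit without the filter used a spread shared across genes, so its calls do not weigh each gene's own spread between libraries. The block fit also leaned more on a shared spread than the fit without it. For WRNIP1 the standard error was 0.159 without the block and 0.156 with it, while the unadjusted p fell from 0.00897 to 0.00323 (edgeR). The parts of the shared spread and of the pairing in the extra calls of the block were not told apart. With each library left out in turn, 69 to 164 genes were called higher, 89 to 181 lower, 0 at the 6p end and 0 to 2 in the lists (0 without NSP replicate 2, 2 without SP replicate 3). Among the named 6p25 and 6p end genes, the block changed the call of FOXF2, WRNIP1, NQO2 and TUBB2A and no other, and among the named list genes that of FOXM1, RAD1 and MAPK9. The sign changed for FOXQ1 without the filter and without NSP replicate 3 (log2 fold change -0.00087) or SP replicate 3 (-0.085), settings chosen after seeing the data, and for DUSP22 without NSP replicate 2 (0.037, in a range from -0.34 over the libraries left out). The cause of these changes was not tested. HUS1B without SP replicate 1 and LINC01011 in 1 leave-one-out fit gave no value. FOXQ1, GMDS and EXOC2 had 0 to 22 counts per library and 95% intervals that include 0 on the log2 scale, and the parts of depth and of spread between libraries in this were not told apart.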
